A study of Homo sapiens with 288 samples.

Results

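Insulin-like growth factor binding proteins are secreted proteins that bind insulin-like growth factors (IGFs) outside the cell. The 7 genes described here, IGFBP1 to IGFBP7, were found by symbol among the 17492 genes listed in the count tables, and each symbol occurred once. The levels are those of mRNA, and protein was not measured. They were read in single cells of 2 types derived from H1, an established line of human embryonic stem cells. The first type, endothelial cells (EC), had been grown in E8 medium with BMP4 at 5 ng/ml and Activin A at 25 ng/ml for 2 days and then with VEGF and WNT for another 3 days. The second type, trophoblast-like cells (TB), had been grown in E7, which is E8 lacking FGF2, with BMP4 at 50 ng/ml and SB431542, an inhibitor of TGF-beta type I receptors, so both types had been exposed to BMP4. The amplified full-length cDNA of 45 EC and 51 TB cells, captured one by one on the Fluidigm C1 microfluidic system, was brought to a single input amount for all cells and sequenced in 3 experiments. EQ pooled equal volumes of every library, and EQ-Vary pooled unequal volumes. The methods leave unstated whether EQ-Vary was pooled from the libraries of EQ. EQ-75% repeated the EQ experiment from the equal cDNA input onward, again pooled equal volumes and had fewer counts. Library preparation and depth thus both differ between EQ and EQ-75% and cannot be told apart. No separate cultures are named, so each cell type in each experiment is 1 sample. The spreads given here are between cells of 1 line, no p-value was computed, and differences are described by their size and by how many cells show them.

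IGFs act through the receptor IGF1R, and the binding proteins hold them in complexes that prolong their life and keep them from the receptor. Proteases of the pappalysin family (PAPPA and PAPPA2) cut particular binding proteins and release the bound IGF, and stanniocalcins (STC1 and STC2) inhibit these proteases. At the placenta IGFBP1 is best known as a product of the decidua on the maternal side, and IGFBP7 is a constituent of the vascular basement membrane.

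All members are protein-coding genes on build GRCh38 in the GENCODE annotation. IGFBP2 (ENSG00000115457, chromosome 2 from 216632828 to 216664436, + strand) and IGFBP5 (ENSG00000115461, chromosome 2 from 216672105 to 216695549, - strand) lie tail to tail with a gap of 7668 bases. IGFBP1 (ENSG00000146678, chromosome 7 from 45888360 to 45893660, + strand) and IGFBP3 (ENSG00000146674, chromosome 7 from 45912245 to 45921874, - strand) lie the same way with a gap of 18584 bases. IGFBP4 (ENSG00000141753) spans 40443450 to 40457725 on the + strand of chromosome 17. IGFBP6 (ENSG00000167779) spans 53097436 to 53102345 on the + strand of chromosome 12, and IGFBP7 (ENSG00000163453) spans 57030773 to 57110385 on the - strand of chromosome 4.

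IGFBP4 and IGFBP5 were the leading members of EC and TB respectively, and the 250 bases upstream of their RefSeq start sites on GRCh38.p14 are shown to set the pair side by side. They are chr17:40443200-40443449 (+ strand) and chr2:216695550-216695799 (- strand), each printed 5′ to 3′. Capitals mark TATAAA in IGFBP4 and the AP-2 motif GCCNNNGGC in IGFBP5.
IGFBP4: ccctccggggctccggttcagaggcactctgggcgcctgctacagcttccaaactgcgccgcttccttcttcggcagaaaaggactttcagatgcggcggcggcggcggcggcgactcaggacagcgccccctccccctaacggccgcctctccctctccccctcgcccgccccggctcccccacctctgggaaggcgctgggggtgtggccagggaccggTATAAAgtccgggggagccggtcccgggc
IGFBP5: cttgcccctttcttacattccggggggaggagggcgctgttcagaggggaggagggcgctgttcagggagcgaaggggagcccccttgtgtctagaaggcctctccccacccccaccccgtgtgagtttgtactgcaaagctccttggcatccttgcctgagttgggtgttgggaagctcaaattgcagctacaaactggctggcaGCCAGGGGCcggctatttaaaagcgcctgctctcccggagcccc
The windows searched ran from 250 bases before the start to 50 after it, on both strands, and RefSeq windows were found for IGFBP2 to IGFBP6. In IGFBP4 the TATAAA began 29 bases upstream of the start, and 11.5% of 35116 RefSeq windows of this length hold that motif. In IGFBP5 the AP-2 match began 44 bases upstream, and 23.2% of the windows hold that motif. IGFBP5 also had 1 match to CCGGAA, an ETS core found in 17.2% of windows, at 233 bases upstream. The motif GATAA (22.7% of windows) was found in neither. Of the other members, IGFBP6 had 2 AP-2 matches, 47 and 40 bases upstream, and 1 to CCGGAA at 240, IGFBP3 had CCGGAA at 62, and 1 of the windows of IGFBP2 had GATAA at 247. These matches describe letters in the windows and do not show binding.

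Cells were used when the log10 of the total count was at least 5.4 and at most 31% of the counts lay in the 50 most abundant genes, the limits stated in the methods. In EQ 38 of the 45 EC and 48 of the 51 TB cells passed, with total counts from 471578 to 3966798 in EC and from 365536 to 3479243 in TB. In EQ-Vary 38 EC and 46 TB cells passed, and in EQ-75% 39 and 50. The labels were checked against marker lists. All 15 endothelial markers were at least 2-fold higher in EC, with a summed level of 6475 CPM, the count scaled to a cell total of 1000000, in EC and 34.1 in TB. Of 13 trophoblast markers 12 were listed and 10 were at least 2-fold higher in TB, among them VTCN1 (1135 against 3.22 CPM) and HAND1 (226 against 0.57 CPM), whereas ELF5 and CGA reached only 3.54 and 2.70 CPM in TB. The TB cells also carried matrix genes of stromal cells, with LUM at 3091 CPM and DCN at 480 CPM against 8.24 and 1.63 in EC. Of 10 stromal markers 6 were higher in TB and 1, COL1A2, in EC. The part of such cells in the TB values was not tested.

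The members divided between the cell types. In EQ, over the summed counts of the passing cells, IGFBP4 was the only tested member at least 2-fold higher in EC (19.6% of the 12333 genes tested were), and 3 members, IGFBP3, IGFBP5 and IGFBP7, were at least 2-fold higher in TB (26.6% of genes were). A gene counted as tested when the mean of its CPM in EC and TB was at least 1. IGFBP2 was tested and passed in neither direction, and IGFBP1 and IGFBP6 were below the limit. The same 5 members were tested with the same outcome in EQ-Vary (20.1% and 27.2% of genes called in EC and TB) and in EQ-75% (18.4% and 27.3%), which share the cDNA of EQ and are not independent of it.

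**Figure D1:**
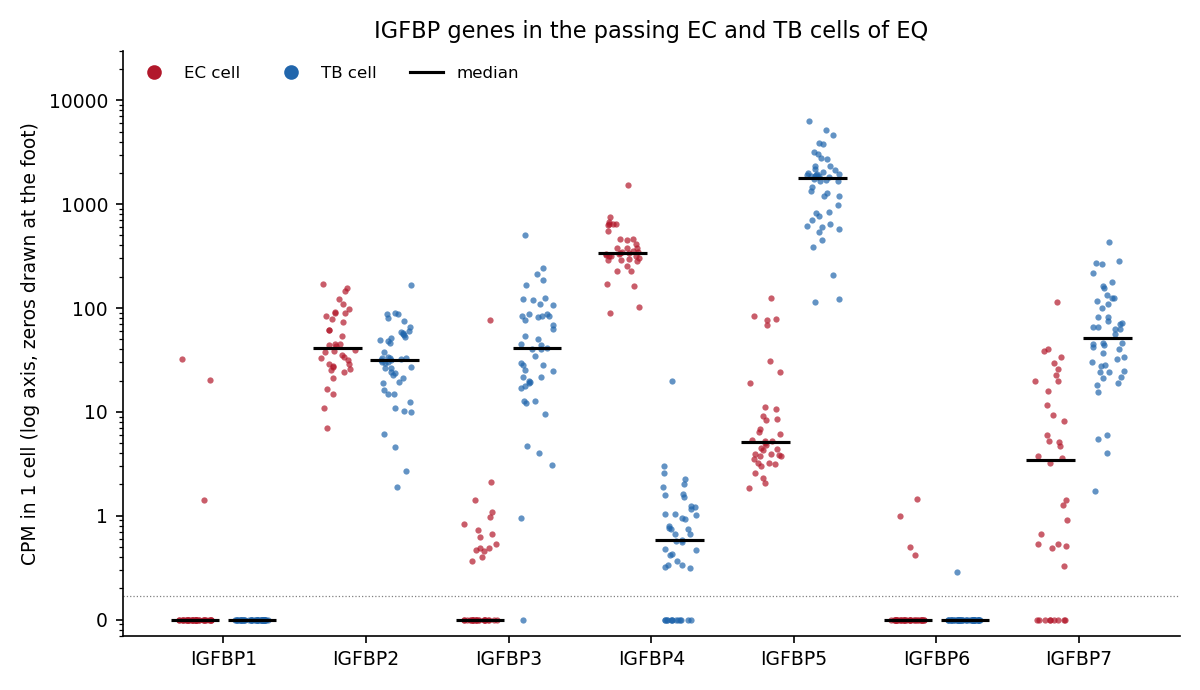
CPM of each IGFBP gene (horizontal axis) in every passing cell of EQ, with 38 EC cells in red and 48 TB cells in blue, on a logarithmic vertical axis with zeros drawn at the foot. Black bars are medians. IGFBP4 separates the types completely, at 88.7 CPM or more in EC and at most 20.02 in TB, and IGFBP5 is separated but for 3 cells.

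IGFBP4, an IGF inhibitor that PAPPA cleaves, was the main binding protein transcript of EC. It was detected in each of the 38 EC cells of EQ, from 88.7 CPM in EC 15 through a median of 337 to 1519 in EC 39. In the 48 TB cells the lowest level was 0, the median 0.58 and the highest 20.02 CPM, in TB 37. Every EC cell was above every TB cell, which held for 0.0568% of the tested genes in that direction. The pooled level was 379 CPM in EC and 1.12 in TB, a ratio of 339 (exact 95% interval for counting error 280 to 413). The next highest TB cell held 3.00 CPM, and TB 37 alone supplied 37.96% of the 108 IGFBP4 counts of TB. That cell was again the highest TB cell in EQ-Vary (12.2 CPM) and EQ-75% (13.04 CPM), and its summed endothelial markers, 26.9 CPM, ranked 30 of 48. The separation also held in EQ-Vary, with 78.7 CPM in the lowest EC cell and 12.2 in the highest TB cell (0.0897% of genes), and in EQ-75%, with 47.1 and 13.04 CPM (0.0655%).

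IGFBP5, which binds extracellular matrix and is cleaved by PAPPA2, was the main binding protein transcript of TB. Over the 48 TB cells of EQ it ranged from 113 CPM in TB 19 through a median of 1787 to 6287 in TB 9. In the 38 EC cells it ranged from 1.84 through a median of 5.12 to 124 CPM in EC 30. The groups met at their edges, since EC 30 lay above the TB cells at 113 and 123 CPM (TB 19 and TB 13) and below all others. The pooled level was 1733 CPM in TB and 16.9 in EC, a ratio of 103 (97.2 to 108). Every TB cell was above every EC cell for 0.114% of the tested genes, and IGFBP5 was not among these. The edges met in the other experiments as well, with 128 CPM in the highest EC and 102 in the lowest TB cell of EQ-Vary (0.122% of genes not overlapping) and 143 and 108 in EQ-75% (0.09%). In EC the gene was spread unevenly. Cells EC 30, EC 25, EC 22, EC 5 and EC 33 held between 68.8 and 124 CPM, and EC 28, EC 23 and EC 20 between 18.9 and 31.1. The other EC cells held at most 11.2 CPM. The 5 highest cells were also the top 5 in EQ-Vary, where they held between 64.4 and 128 CPM, and stayed within the top 6 in EQ-75%. These 5 cells were chosen after their values were seen. Their summed trophoblast markers ranked between 18 and 37 of 38 EC cells, and their summed stromal markers ranked 2 (EC 25), 4 (EC 30), 6 (EC 22), 23 (EC 33) and 29 (EC 5).

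IGFBP3, the main IGF carrier of serum, was a TB gene with a few strong cells. It was detected in 47 of 48 TB cells of EQ (97.9%, exact binomial 95% interval 88.9 to 99.9, for counting error), from 0 in TB 40 through a median of 40.8 to 502 CPM in TB 16. In EC it was detected in 16 of 38 cells (42.1%, 26.3 to 59.2), with a median of 0, but only EC 33 stood out. EC 33 held 76.6 CPM in EQ, then 73.8 (EQ-Vary) and 64.8 (EQ-75%), and it supplied 83.2% of the 119 IGFBP3 counts of EC. The next EC cell held 2.12 CPM from 1 count. TB 16, the highest TB cell in all 3 experiments, supplied 22.5% of the TB counts and had the highest summed trophoblast markers of the 48 TB cells. The pooled level was 80.3 CPM in TB and 1.52 in EC, a ratio of 52.9 (44.1 to 63.9), and without EC 33 and TB 16 the log2 ratio of EC over TB went from -5.72 to -7.96.

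IGFBP7, a low-affinity IGF binder that attaches to collagen IV, was higher in TB than in EC although it is known from vessel walls. All 48 TB cells held it, from 1.73 CPM in TB 13 through a median of 51.1 to 430 in TB 15. In EC it was detected in 29 of 38 cells (76.3%, 59.8 to 88.6), with a median of 3.40 CPM and a highest level of 115 in EC 16. The ranges overlapped widely, with 20 EC cells above the lowest TB cell, yet 47 of 48 TB cells were above the median EC cell. The pooled level was 81.6 CPM in TB and 11.2 in EC, a ratio of 7.30 (6.81 to 7.84). EC 16 was the highest EC cell in all 3 experiments and supplied 24.7% of the EC counts in EQ. Its summed endothelial markers, 4040 CPM, ranked 32 of 38 and its summed trophoblast markers 21. With the median cell plus 1 CPM in place of the pool, the log2 ratio of EC over TB was -3.56, against -2.87.

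IGFBP2, which carries an integrin-binding motif and is abundant in fetal tissues, was detected in every passing cell of both types in EQ, as was IGFBP5. In EC it ranged from 6.92 CPM in EC 7 through a median of 41.3 to 169 in EC 28. In TB it ranged from 1.89 CPM in TB 9, from 1 count, through a median of 31.4 to 167 in TB 40, from 61 counts. TB 40 had the lowest total count of the passing TB cells, 365536, and in EQ-75% was at 46.8 CPM, rank 6. The ranges overlapped over almost their whole width, and an EC cell was higher than a TB cell in 64.4% of all pairs. The pooled level was 53.8 CPM in EC and 35.9 in TB, a ratio of 1.5 (1.43 to 1.57) that stayed under the 2-fold limit. The SD between cells, 41.3 CPM in EC (n = 38) and 29.95 in TB (n = 48), was larger than the difference of the means, 57.0 and 38.7 CPM. The ratio was 1.43 in EQ-Vary and 1.14 in EQ-75%. TB 9 had both the lowest IGFBP2, from 1 count, and the highest IGFBP5 of the TB cells.

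IGFBP1 and IGFBP6 were rare. IGFBP1 was detected in 3 EC cells, EC 19 at 32.3 CPM from 89 counts, EC 3 at 20.4 CPM from 38 counts and EC 23 at 1.43 CPM from 1 count. EC 19 and EC 3 were also the only EC cells with it in EQ-Vary (103 and 29 counts) and in EQ-75% (35 and 20 counts). It was detected in 0 of 48 TB cells, which by the limit of 3 cells allows a share of cells with a count of up to 6.25% (exact binomial upper limit 7.397%), and in no TB cell of the other experiments. Against a floor of 3 counts over the TB cells, pooled EC was at least 52.6-fold higher, then 58.7 (EQ-Vary) and 27.8 (EQ-75%), a bound that rests on 2 cells. IGFBP6, which prefers IGF2, had 7 counts in 4 of 38 EC cells and 1 count in 1 of 48 TB cells, a ratio of 8.63 with an interval from 1.11 to 389. The decidual genes listed beside IGFBP1, HAND2 and FOXO1, were both at least 2-fold higher in EC, HAND2 at 21.3 against 0.0207 CPM, and the summed level of both was 246 CPM in EC 19 and 6.44 in EC 3. PRL and HSD11B1, also decidual genes, were not found among the listed genes.

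Levels of different genes were compared per length, as TPM, which scales counts per length to a sum of 1000000, from the pooled counts and the length of the GENCODE canonical transcript. In EC of EQ the order was IGFBP4 (408 TPM), IGFBP2 (90.4), IGFBP7 (18.6), IGFBP5 (6.43), IGFBP1 (2.56), IGFBP3 (1.38) and IGFBP6 (0.22). IGFBP4 was above IGFBP2 in 37 of 38 EC cells and IGFBP2 above IGFBP7 in 34, whereas IGFBP7 was above IGFBP5 in 19 cells and below it in 19, so these neighbours did not differ beyond their spread. In the same way the place of IGFBP1 above IGFBP3 rested on 3 cells, against 14 in which it was below. In TB the order was IGFBP5 (588 TPM), IGFBP7 (121), IGFBP3 (65.0), IGFBP2 (53.7), IGFBP4 (1.07), IGFBP6 (0.0231) and IGFBP1 (0). IGFBP5 was above IGFBP7 in 47 of 48 TB cells and IGFBP7 above IGFBP3 in 36. IGFBP3 was above IGFBP2 in only 17 TB cells and below it in 31, so the order of their pools did not hold in most cells. The same pair stood at 18 and 28 of 46 cells in EQ-Vary, whereas in EQ-75% IGFBP3 was above in 31 of 50 TB cells and below in 19. Among all genes with a length, IGFBP5 ranked 272 by TPM in TB and IGFBP4 ranked 432 in EC.

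**Figure D2:**
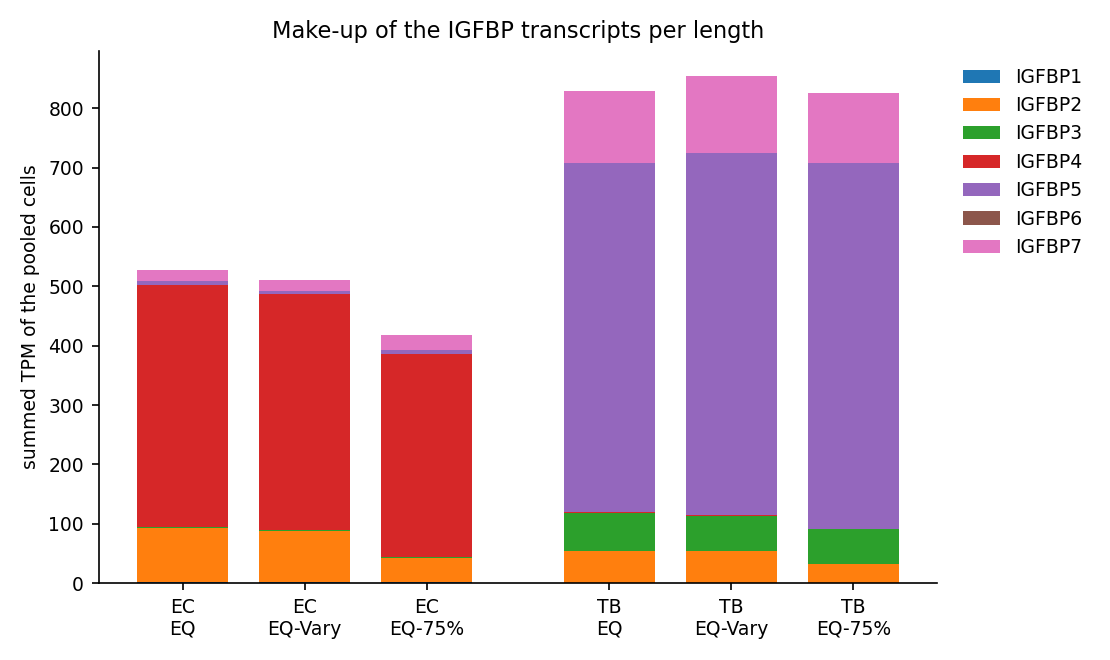
Summed TPM of the pooled passing cells (vertical axis) for EC and TB in EQ, EQ-Vary and EQ-75%, stacked by IGFBP gene. IGFBP4 makes up 77.3% of the EC bar of EQ and IGFBP5 70.9% of the TB bar, and the IGFBP2 block is smaller in EQ-75% in both types.

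Each cell type was thus led by 1 member. IGFBP4 made up 81.6% of the member counts of EC and 77.3% of their summed TPM of 528, and it had the most counts of the members in 38 of 38 EC cells. IGFBP5 made up 89.7% of the member counts of TB and 70.9% of their summed TPM of 829, and it had the most counts in 47 of 48 TB cells, with IGFBP3 leading in TB 16. Per length, IGFBP4 led in 37 EC cells and IGFBP2 in EC 11, and IGFBP5 led in 45 TB cells, IGFBP3 in TB 13 and TB 16 and IGFBP7 in TB 19. IGFBP2 made up 17.1% of the EC TPM and 6.47% of the TB TPM. An EC cell of EQ held a median of 4 detected members (3 to 6) and a TB cell a median of 5 (3 to 6). Here 1 count sufficed for detection. IGFBP4 was detected in 35 of 48 TB cells but had at least 5 counts in 3, and IGFBP3 in 16 of 38 EC cells but in 1.

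The low levels of IGFBP4 in TB and of IGFBP5 in EC were set beside other genes, because the libraries of both types were pooled. The limits used here were chosen after seeing the data. Of 2270 genes with at least 100 CPM in EC of EQ, none was at 0 in TB, and the 64 with the smallest shares, under 1% of their EC level, had a median of 0.224% and a lowest value of 0.104%. The IGFBP4 level in TB was 0.295% of that in EC for the pool and 0.153% for the median TB cell. Of 2169 genes with at least 100 CPM in TB, 52 were under 1% in EC, with a median of 0.311% and a lowest value of 0.205%. IGFBP5 in EC was 0.975% of its TB level for the pool and 0.295% for the median EC cell. IGFBP3 in EC stood at 1.89% of its TB level and IGFBP7 in EC at 13.7%. Libraries under 100000 counts also held the leading members of both types, and the 3 of EC had 30 counts of IGFBP5 (777 CPM) and 14 of IGFBP4 (362 CPM). EC 41 held 22 of the 30, and without it IGFBP5 was at 324 CPM. The part of reads from other libraries in the low levels was not tested. At a depth of 250000 counts, the expected share of cells with IGFBP4 in TB was 18.3%, against 72.9% as sequenced, and that of IGFBP5 in EC was 75.8%, against 100%.

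Spread between cells was measured by the coefficient of variation (CV) of the CPM and set beside the running median of genes of similar mean. IGFBP2 was among the more even genes at its level, with a CV of 0.724 in EC and 0.775 in TB, which were 0.429 and 0.500 times the running median. In EC 91.1% of genes had a higher ratio to it, and in TB 92.2%. IGFBP5 in TB was on the uneven side for so abundant a gene. Its CV of 0.714 was 1.70 times the running median, and 4.37% of genes had a higher ratio. IGFBP4 in EC had a CV of 0.606, 0.813 times the running median. IGFBP3 and IGFBP7 in TB lay at it, with CVs of 1.24 and 1.05 and ratios of 1.0 and 0.988. The ratios were close in EQ-Vary, at 0.414 for IGFBP2 in EC and 1.67 for IGFBP5 in TB, and in EQ-75%, at 0.487 and 1.65.

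The order of the cells could be read again from the same cDNA. Across the 47 TB cells passing in both EQ and EQ-75%, Spearman's rho between the experiments was 0.972 for IGFBP5, 0.975 for IGFBP3, 0.962 for IGFBP7 and 0.915 for IGFBP2. Across 37 EC cells it was 0.867 for IGFBP4, 0.852 for IGFBP2, 0.885 for IGFBP7 and 0.776 for IGFBP5. For IGFBP3 in EC and IGFBP4 in TB, which rest on few counts per cell, rho was 0.158 and 0.166. The points share their cDNA, and these values describe how repeatable the library step was.

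Between EQ and EQ-75%, IGFBP2 stood out in both cell types. Over the 37 EC cells passing in both, its pooled level was 53.6 CPM in EQ and 22.2 in EQ-75%, that is 41.5% of EQ (38.9 to 44.2), and the level was lower in 37 of 37 cells. Over the 47 TB cells it was 35.6 and 21.02 CPM, 59.0% of EQ (55.6 to 62.5), and lower in 46 of 47. The median cell was 1.43 lower on the log2 scale in EC and 1.16 lower in TB. Only 0.342% of the genes tested in EC and 0.490% in TB had a lower ratio than IGFBP2. At a limit of 1.5-fold 3 members, IGFBP1, IGFBP2 and IGFBP3, were lower in EQ-75% in EC (5.74% of 11397 genes tested were) and 1, IGFBP2, in TB (1.55% of 11836). No member was higher by 1.5-fold in either type (1.44% of genes in EC and 0.963% in TB were).

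The other members of this count rested on single cells. IGFBP1 in EC came from EC 19 and EC 3, and IGFBP3 in EC largely from EC 33. Taken within cells, the median log2 ratio of IGFBP3 over the 7 EC cells with counts in both was 0.32, in the other direction, and that of IGFBP5 in EC was -0.63, past the limit, although its pooled level was 85.0% of EQ. IGFBP4 in EC was 78.4% of EQ (76.9 to 79.9) and lower in 36 of 37 cells. In TB, IGFBP5 was at 101% of EQ, IGFBP7 at 96.7% and IGFBP3 at 86.7%. IGFBP7 in EC was at 121%, lower in 15 cells and higher in 15.

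**Figure D3:**
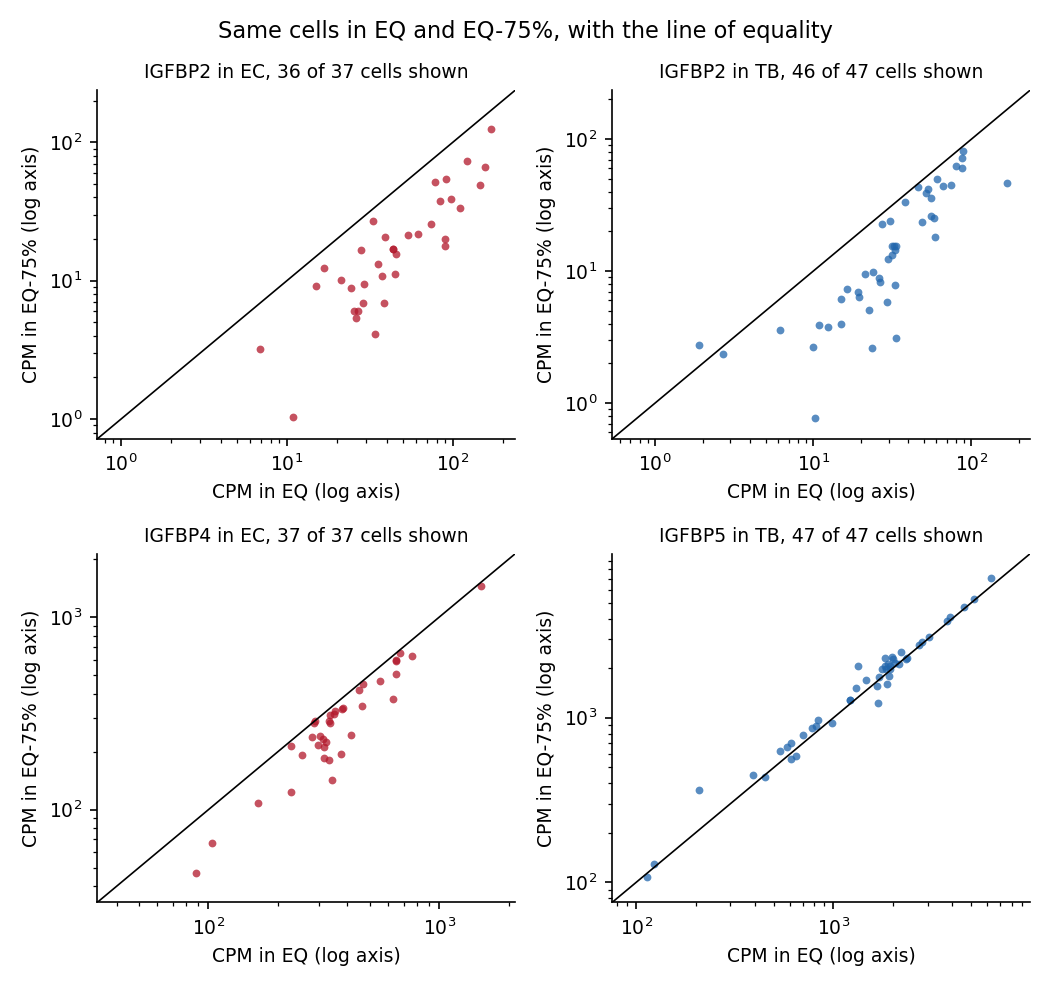
CPM in EQ-75% (vertical) against CPM in EQ (horizontal) for cells passing in both, on logarithmic axes with the line of equality, leaving out cells at 0 in either. IGFBP2 lies below the line in all 37 EC cells and in 46 of 47 TB cells, counting the cells not drawn, IGFBP4 in 36 of 37 EC cells, and IGFBP5 in TB lies along it.

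Between EQ and EQ-Vary, 0 members passed the 1.5-fold limit in either direction in EC (2.22% of genes were lower and 0.699% higher) or in TB (1.27% and 0.49%). IGFBP2 in EQ-Vary was at 94.3% of EQ in EC, lower in 16 cells and higher in 22, and at 99.98% in TB. The tested members furthest from EQ were IGFBP5 in EC, at 77.3%, and IGFBP4 in TB, at 81.5% of a level near 1 CPM.

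Transcript GC content moved with the ratio of EQ-75% to EQ. This comparison was chosen after seeing the data. The canonical transcript of IGFBP2 has 67.4% GC, that of IGFBP6 64.7%, that of IGFBP4 62.6% and those of the others between 49.9% and 52.1%. With the tested genes in 10 groups by GC, the median log2 ratio went from 0.19 in the lowest group to -0.37 in the highest in EC and from 0.14 to -0.21 in TB. In the highest group 24.1% of the genes in EC and 6.44% in TB were at least 1.5-fold lower. That group holds IGFBP2 in both types and IGFBP4 in EC, while IGFBP4 in TB was not tested. IGFBP4 in EC, at -0.35, was near the median of its group, and IGFBP2 was further from it, at -1.27 in EC and -0.76 in TB. For EQ-Vary the group medians stayed between -0.04 and 0.02 in EC. The part of GC in the IGFBP2 values was not tested.

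**Figure D4:**
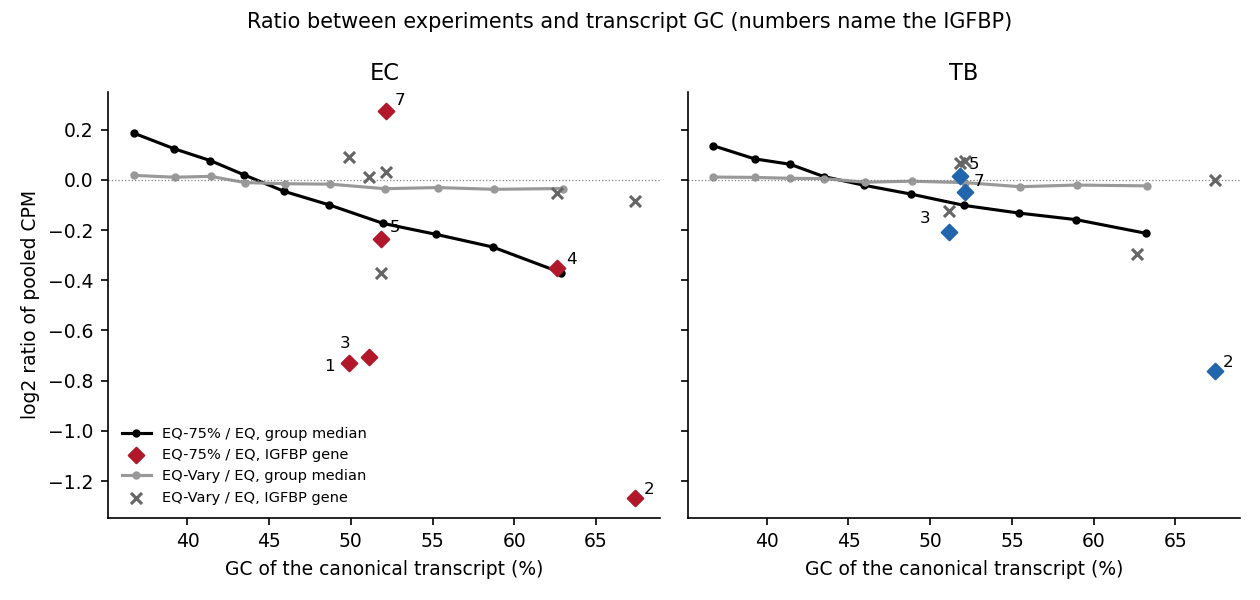
Log2 ratio of pooled CPM between experiments (vertical) against GC of the canonical transcript in percent (horizontal), in EC and TB. Lines are medians of 10 groups of genes for EQ-75% over EQ (black) and EQ-Vary over EQ (grey), diamonds and crosses are tested IGFBP genes, and the diamond of IGFBP2 lies lowest in both panels, at -1.27 and -0.76.

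The rest of the IGF axis was read from a list of 39 genes, all of them listed. Of 32 tested in EQ, 4 were at least 2-fold higher in EC, 13 in TB and 15 in neither, beside 19.6% of all tested genes in EC and 26.6% in TB, and the median log2 ratio of EC over TB was -0.24, against -0.05 for all 12333 genes tested. Among the ligands, IGF2 was at 259 CPM in TB and 13.97 in EC, and IGF1 at 4.55 in TB and 12.2 in EC. EC 15 held 208 CPM of IGF1, and without it the EC level was 7.01 CPM, under the 2-fold limit. In EQ-75% IGF1 was higher in TB, at 27.4 CPM against 10.95 in EC. That TB level pools the 50 TB cells passing there, which are not the same cells as in EQ. The part of single cells in it was not examined. The receptors passed in neither direction by their pooled levels, with IGF1R at 299 CPM in EC and 260 in TB, IGF2R, which clears IGF2, at 153 and 85.5, and INSR, the insulin receptor, at 147 and 135. The median cells differed for INSR, at 2.55 CPM in EC and 44.7 in TB, and EC 15 held 1227 CPM of it. For IGF2R the median cells were at 103 CPM in EC and 36.8 in TB, and for IGF1R at 248 and 234. Of the adaptors that carry the signal inside the cell, IRS1 was at 46.4 CPM in TB and 0.43 in EC, whereas IRS2 was at 28.6 and 24.1.

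Of the 10 proteases and inhibitors, 6 were higher in TB and 2 in EC. PAPPA2, which cleaves IGFBP5 and IGFBP3, was at 992 CPM in TB and 2.65 in EC, a ratio of 374. It was thus on the side of IGFBP5. PAPPA, which cleaves IGFBP4, was at 3.38 CPM in TB and 0.0383 in EC, where IGFBP4 was high. STC1, an inhibitor of pappalysins, was at 581 CPM in EC and 17.0 in TB. TIMP1, an inhibitor of matrix proteases, was at 441 CPM in EC and 61.6 in TB. ADAM9 was at 177 CPM in TB and 25.9 in EC, MMP2 at 83.6 and 22.9, ADAM28 at 18.5 and 1.68, and STC2 at 12.6 and 2.30. Of 8 genes related to the binding proteins 6 were tested, of which 4 were higher in TB, 0 in EC and 2 in neither. CCN2 was at 221 CPM in TB and 0.63 in EC, CCN1 at 201.4 and 15.0, IGFBPL1 at 16.5 and 0.0255, and the protease HTRA1 at 12.96 and 0.0510. The protease ADAM12 (15.6 CPM in TB and 12.4 in EC) passed in neither direction. The 3 IGF2 mRNA-binding proteins also passed in neither direction, with IGF2BP1 at 225 CPM in EC and 147 in TB, IGF2BP2 at 80.6 and 88.7, and IGF2BP3 at 90.2 and 180.0. The median cells of IGF2BP3 lay further apart, at 27.4 CPM in EC and 166 in TB. Those of IGF2BP1 were at 106 and 111 CPM and those of IGF2BP2 at 56.8 and 91.9. Of the regulators, FOXO1, a transcription factor that insulin signalling keeps out of the nucleus, was at 263 CPM in EC and 63.2 in TB, and the imprinted growth inhibitor CDKN1C was at 206 in TB and 69.3 in EC. HIF1A, the oxygen-regulated transcription factor, was at 450.9 CPM in TB and 489.5 in EC, FOXO3 at 199 and 168, and the receptor adaptor GRB10 at 12.8 and 19.3, and these passed in neither direction.

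**Figure D5:**
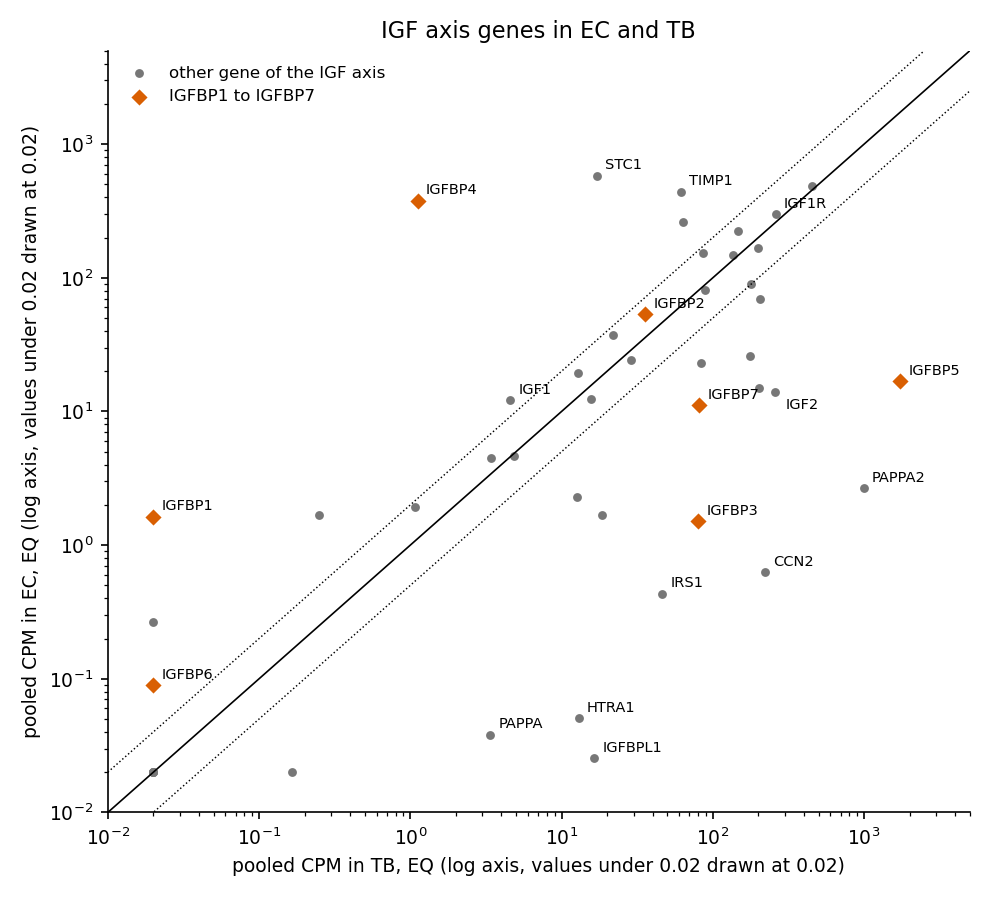
Pooled CPM in EC (vertical) against TB (horizontal) of EQ for IGFBP1 to IGFBP7 (orange diamonds) and 39 other genes of the IGF axis (grey), on logarithmic axes with values under 0.02 drawn at 0.02. The solid line marks equality and the dotted lines 2-fold. IGFBP4 stands with STC1 and TIMP1 above the lines, and IGFBP5 with PAPPA2 below them.

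In the 48 TB cells of EQ the highest rho between any 2 of IGFBP2, IGFBP3, IGFBP4, IGFBP5 and IGFBP7 was 0.32, between IGFBP5 and IGFBP7. The neighbours on chromosome 2, IGFBP2 and IGFBP5, had a rho of 0.26 in EC and 0.25 in TB, then 0.40 and 0.39 (EQ-Vary) and 0.13 and 0.28 (EQ-75%). That of IGFBP2 and IGFBP7 in TB was 0.24, then 0.34 (EQ-Vary) and 0.43 (EQ-75%). TB 13 and TB 16 were the cells lowest in IGFBP7 and were among the 3 lowest in IGFBP5. IGFBP5 in TB was lower in cells with more of the summed proliferation markers MKI67, TOP2A, CCNB1, CDK1, AURKA and BIRC5, with a rho of -0.47 (n = 48 cells) in EQ, then -0.48 (EQ-Vary) and -0.45 (EQ-75%). It was picked afterwards, as the strongest rho of a member with a marker list in TB of EQ. With the same markers the rho in EQ was -0.37 for IGFBP2, -0.33 for IGFBP7, -0.07 for IGFBP4 and 0.07 for IGFBP3. The rho of IGFBP5 in TB with the total count was 0.0142 in EQ, then 0.19 (EQ-Vary) and -0.08 (EQ-75%). On log2 values the Pearson correlation with the total count was -0.19, then 0.05 (EQ-Vary) and -0.30 (EQ-75%). With PAPPA2 the rho of IGFBP5 in TB was 0.51 in EQ, then 0.54 (EQ-Vary) and 0.52 (EQ-75%). The pair was picked after the values were seen, as the highest rho computed in EQ between a member and an axis gene in TB. In EC of EQ the strongest rho computed between a member and a marker list was 0.42 (n = 38), of IGFBP2 with the summed endothelial markers. These correlations are across cells that share a library pool and, between experiments, the cDNA.

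For each member found in at least 20 cells of a type, the genes with the most similar pattern were taken by rho in EQ, out of 8727 genes in EC and 10019 in TB. The other experiments share the cDNA of these cells. For IGFBP5 in TB they were IFI16 (0.69), KDM6B (0.59) and FAM107B (0.59), and in EQ-75% the values were 0.66, 0.56 and 0.53. For IGFBP7 in TB they were HAPLN1 (0.60), ADAMTS2 (0.55) and RNF43 (0.52), and for IGFBP3 SNRPF (0.53), LRRC41 (0.53) and TWSG1 (0.51). ADAMTS2 was at 0.32 in EQ-Vary and 0.43 in EQ-75%, and HAPLN1 at 0.58 and 0.51. For IGFBP2 they were PCDHA12 (0.68), LINC00161 (0.58) and CPZ (0.56) in TB, and TM4SF18 (0.63), FURIN (0.62) and LPL (0.60) in EC. LINC00161, at 0.71 CPM, was at 0.28 in EQ-Vary and 0.19 in EQ-75%, whereas PCDHA12 was at 0.50 and 0.53. For IGFBP4 in EC they were SLC25A35 (0.65), FGFR1 (0.59) and DESI1 (0.56). SLC25A35, at 2.04 CPM, was at -0.04 in EQ-Vary, whereas FGFR1, a receptor for fibroblast growth factors at 371 CPM, was at 0.55 there. The low values of IGFBP4 in TB gave DDX31 at 0.61 in EQ and 0.07 in EQ-Vary. That pick was thus not found again in EQ-Vary. For IGFBP5 in EC the picks were SMIM14, TMEM185A and ESYT2, between 0.55 and 0.56, and for IGFBP7 FDX1 (0.62), NFYA (0.58) and ABCA13 (0.56).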

How the data were processed

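The values were expected counts per gene, which the authors estimated with RSEM 1.2.31 from reads trimmed to 51 bp and mapped by Bowtie 1.2.3, allowing 2 mismatches, against Ensembl protein-coding genes on GRCh38, and deposited without normalization. CASAVA 1.8.2 is also named in the submitters' processing notes. RSEM divides reads between similar genes, and 467 of the 1239 member values above 0 were not whole. Counts were rounded, and CPM took the total count of the cell. Pooled CPM was the summed count of the passing cells of a type over their summed totals, and TPM used canonical transcript lengths from GENCODE 44, found for 17431 genes. Of the sample columns, 0 were left unused, and the unEQ libraries were not analysed here. Doublets and dead cells seen in images had been removed by the authors in the earlier experiment on these cells, and no doublet caller was run.

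Cell types and experiments came from the labels. Ratios carry exact conditional binomial intervals and shares Clopper-Pearson intervals at 95%, which cover counting error only, since PCR reads are not independent molecules. At the median depth of an EC cell of EQ, 2025140 counts, 1 count is 0.494 CPM. EC and TB were compared at 2-fold among genes with a mean of at least 1 CPM, and experiments at 1.5-fold over cells passing in both. The methods state that the experiments used the cDNA of the same cells, and same-numbered cells were taken as pairs. The lowest correlation of their deviations from the mean of the type was 0.845, and every cell correlated best with its own number. The members, marker lists and IGF axis list were chosen with earlier results of these data known. All members were described, and axis genes were named from 10 CPM in either type upward, apart from PAPPA. PAPPA, the single cells singled out, the example marker genes, and the axis pairs and marker lists given a rho were chosen after their values were seen. One axis gene that the rule would name is not reported here. The 3 genes most like each member were taken by Spearman correlation. The ratios, thinning and CV steps were tested on simulated data. Computations ran in Python 3.11.15 (scipy 1.17.1, pandas 2.3.3, numpy 2.4.6), with figures from matplotlib 3.10.9.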

Additional observations from a re-analysis of the deposited data

Results flagged for a closer look

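The cells left out of EQ by the limits on depth and on counts in the top 50 genes belong to none of the comparisons, and they held counts of the members above the limit of 3 counts. In the 7 EC cells left out, the pooled level was 44.2 CPM for IGFBP2 (42 counts), 421 CPM for IGFBP4 (400 counts in 7 of 7 cells), 89.5 CPM for IGFBP5 (85 counts in 6 cells) and 48.5 CPM for IGFBP7 (46 counts in 4 cells). The passing EC cells held 53.8, 379, 16.9 and 11.2 CPM. EC 40 supplied 43 of the IGFBP7 counts and 222 of the IGFBP4 counts, and without it IGFBP7 was at 3.99 CPM and IGFBP4 at 237. EC 44 supplied 23 of the IGFBP2 counts, and without it IGFBP2 was at 25.3 CPM. These values were computed after seeing the data. In the 3 TB cells left out, IGFBP5 stood at 1512 CPM (101 counts) and IGFBP4 at 59.9 CPM from 4 counts, against 1733 and 1.12 CPM in the passing TB cells. With these cells included, the CV of IGFBP5 over EC cells was 3.61, against 1.67. All 3 TB cells and 3 of the EC cells had fewer than 100000 counts. The differences from the passing cells were not tested.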

How the results depend on the processing

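The directions of the 5 tested members between EC and TB were the same under the 10 alternatives tried for each, with 0 reversals in 50 values. The count higher in EC was 3 with no limit on low values, against 1, since IGFBP1 and IGFBP6 then entered, and the count higher in TB was 3 under all 13 alternatives. The median log2 ratio of EC over TB of all genes was -0.0537, and 1 alternative subtracted it. With the median cell plus 1 CPM in place of the pool, the log2 ratio was 7.74 for IGFBP4 and -8.19 for IGFBP5, against 8.403 and -6.68. The added 1 CPM exceeds the median of IGFBP4 in TB, 0.58 CPM, and so lowers its ratio. Without the highest cells the log2 ratio was 9.002 for IGFBP4. For EQ-75% against EQ, the 2-fold threshold left 1 member in EC and 0 in TB, against 3 and 1 at 1.5-fold. Cells were also paired by number in a replicate block, as the median ratio within cells. The counts were then 3 in EC and 1 in TB, but in EC IGFBP5 entered and IGFBP3 left. The block gave 0 and 0 for EQ-Vary. Of 70 shares of detected cells 19 moved by more than their interval, none of them for IGFBP2. With at least 5 counts required, IGFBP3 was detected in 2.63% of EC cells, IGFBP4 in 6.25% of TB cells and IGFBP7 in 50.0% of EC cells, against 42.1%, 72.9% and 76.3%. Of 55 CVs 4 moved, and that of IGFBP3 in EC was 1.54 without EC 33, against 5.33. Depth limits the members under 1 CPM, where 1 count decides detection.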

Other observations

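Of 6 pluripotency genes 5 were tested, of which 2 were at least 2-fold higher in EC, 1 in TB and 2 in neither. LIN28A was at 282 CPM in EC and 299 in TB of EQ, NANOG at 76.4 and 28.7 (38.96 in EC without EC 15, under the 2-fold limit) and DPPA4 at 31.5 and 90.9, whereas SOX2 was at 0 in EC and 0.65 in TB. Of the 6 proliferation markers 4 were at least 2-fold higher in EC, among them BIRC5 at 371 against 128 CPM and TOP2A at 205 against 52.8. The median cells were close, with summed levels of 113 CPM in EC and 102 in TB, while the pooled sums were 948 and 433 CPM.

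The ligand IGF1 in TB was at 4.55 CPM in EQ, then 4.46 (EQ-Vary) and 27.4 (EQ-75%). These levels pool the 48, 46 and 50 TB cells passing in each experiment. TB 4, TB 28 and TB 48, left out of EQ, passed in EQ-75%, and TB 8 did not. IGF1 was not compared over the same cells, and the part of single cells in its levels in TB was not examined. In EC IGF1 was at 12.2, 10.4 and 10.95 CPM. IGFBP7 and MMP2 in TB went in opposite directions across cells, with a rho of -0.47 in EQ (n = 48 cells), then -0.53 (EQ-Vary) and -0.42 (EQ-75%). The pair was picked after the values were seen, as the lowest rho computed in EQ between a member and an axis gene in TB.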
